A study of Mus musculus with 24 samples.

Results

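The genes described here are 52 mouse genes whose products assemble ribosomes in the nucleolus, taken from 36528 gene rows per library. They were listed by name and function: 8 proteins of small nucleolar ribonucleoproteins (snoRNPs), 7 subunits of RNA polymerase I and nucleolar hub proteins, 17 small subunit processing factors and 20 large subunit processing factors. Their choice also used measured values: they were selected on the difference between toxin-treated and saline libraries at 24, 48 and 96 h. Values of that contrast are therefore given for these genes as a description, without p-values, and nothing is supported with them. All 52 passed the filter on low counts.

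RNA sequencing was performed on cells sorted from mouse tumours derived from small intestine. Every library carries the genotype recorded as AKVPL, an EpCAM label (EpCAM is an epithelial surface protein) and a bulk sort. The 6 groups are saline at 24 h, diphtheria toxin (DT) at 24 h, saline at 48 h, DT at 48 h, saline at 96 h and DT at 96 h, with 4 libraries each. DT was given to deplete cells expressing Lgr5, a receptor of intestinal stem cells. The sources used here do not give the meaning of the genotype's letters, the construct that makes cells sensitive to the toxin, the ages of the animals or how the tumours were made. Total counts per library ran from 10.9 to 27.7 in units of 1e6 counts. Whether the 4 libraries of a group are 4 animals is not stated in the labels. The p-values cover the spread among these libraries and nothing wider, and that spread may be technical. In bulk RNA, a change in the number of cells of a type and a change in RNA per cell cannot be told apart.

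Ribosome assembly starts in the nucleolus, where RNA polymerase I transcribes a long precursor of the ribosomal RNAs. SnoRNPs modify that precursor: box C/D particles methylate riboses, and box H/ACA particles convert uridines to pseudouridines. The small subunit processome and a series of large subunit particles then fold and cut it, with the help of helicases, GTPases and methyltransferases. Intestinal crypt cells and their tumours divide fast, and nucleolar activity is high in such cells. Many assembly genes are known targets of the transcription factor Myc, which binds the E-box motif CACGTG.

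Sequences at the start of these genes are shown because the members differ in where they carry that E-box. Promoter windows of 250 bases before to 50 bases after the transcription start came from RefSeq (GRCm38.p6), and 47 of the 52 genes had an entry. CACGTG, which reads the same on both strands, was present in 10 of the 47 (21.3%). It was present in 17 of 91 other ribosome assembly factors (18.7%), in 1290 of 11540 protein-coding genes tested (11.2%) and in 8.09% of all 27025 genes with a window. The windows of 8 genes held it within the first 50 bases after the start, and those of 2 genes held it upstream. Each line gives up to 10 bases on either side of the motif, in the gene's own direction, with the motif in capitals.
Ltv1 (chr10:13193094-13193119, minus strand): cctgtggaccCACGTGtggagctgcc
Mybbp1a (chr11:72441357-72441376, plus strand): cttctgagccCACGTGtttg
Nle1 (chr11:82908357-82908382, minus strand): ggttctcctcCACGTGgggacgcagg
Pes1 (chr11:3963967-3963992, plus strand): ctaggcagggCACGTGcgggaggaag
Tsr1 (chr11:74898094-74898119, plus strand): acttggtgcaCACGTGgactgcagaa
Utp20 (chr10:88826765-88826787, minus strand): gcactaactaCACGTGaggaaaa
Utp4 (chr8:106893645-106893670, plus strand): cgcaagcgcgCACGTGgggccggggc
Wdr43 (chr17:71616222-71616247, plus strand): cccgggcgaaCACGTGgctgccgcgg
Imp4 (chr1:34439698-34439723, plus strand): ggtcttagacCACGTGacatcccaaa
Nop2 (chr6:125131813-125131838, plus strand): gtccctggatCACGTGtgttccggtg

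The first 8 of these lie just after the annotated start. Over that 50-base stretch the motif was present in 17.0% of the 47 genes, in 8.79% of the 91 other assembly factors and in 1.68% of the protein-coding genes tested. Sequence after the start was found in annotated transcripts of the same gene for 41 of the 51 windows of the 47 genes. Whether the 8 windows with the motif there are among these is not given here. Over the 250 upstream bases it was present in 4.26% of the 47 genes, in 10 of the 91 other assembly factors and in 9.52% of protein-coding genes tested. Of cytosolic ribosomal protein genes, 14.6% held it anywhere in the window, and of genes of dividing cells 3.7%. The bases before the start of Nop2, a methyltransferase of large subunit RNA (chr6:125131633-125131882, plus strand, 67.6% G or C), show the motif in a promoter of this group.
Nop2: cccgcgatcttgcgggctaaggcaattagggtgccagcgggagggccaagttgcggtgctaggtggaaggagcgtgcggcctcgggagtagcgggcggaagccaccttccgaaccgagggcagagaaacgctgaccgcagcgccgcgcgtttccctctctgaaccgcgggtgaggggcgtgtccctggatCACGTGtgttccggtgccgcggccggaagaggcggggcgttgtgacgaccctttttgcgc

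The 10 genes with the motif had a median log2 fold change (DT against saline at 24 h) of 0.56, with a range of 0.24 to 0.84. The 37 genes whose window lacked it had a median of 0.52 and a range of 0.21 to 1.13. Ltv1 and Mybbp1a both carry the motif just after the start, and their 24 h values, 0.24 and 0.76, lie near opposite ends of that range. A match is only a match of letters and says nothing of binding. Motif positions are drawn in the plot of E-box positions.

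**Figure D1:**
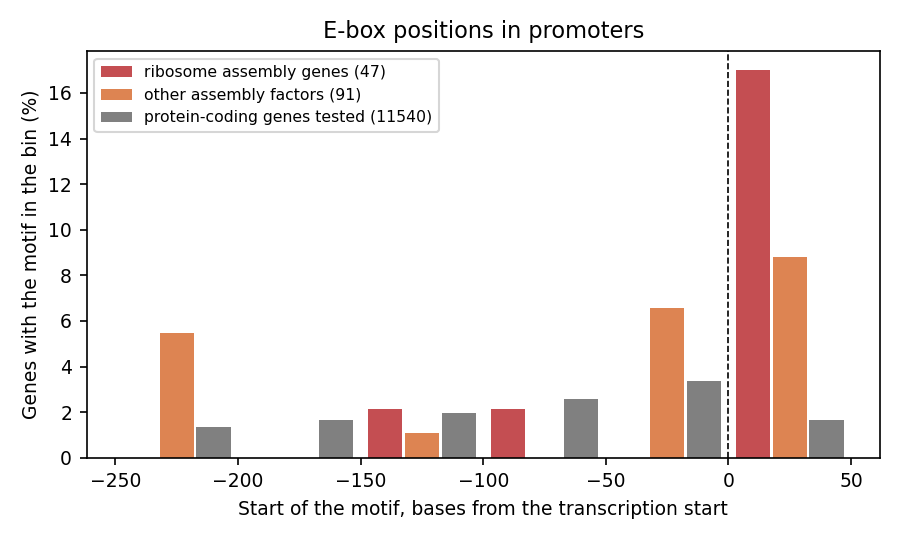
Share of genes (%) whose CACGTG motif starts in each 50-base bin, against the distance in bases from the transcription start (dashed line), for the 47 ribosome assembly genes with a window, 91 other assembly factors and 11540 protein-coding genes tested. The bin after the start holds 17.0%, 8.79% and 1.68% of the 3 sets.

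Some of these genes also hold snoRNA genes, whose products guide the snoRNPs. In the GENCODE M21 annotation (GRCm38), 7 of the 52 genes (13.5%) hold a total of 21 snoRNA genes within their bounds on the same strand, against 241 of 14313 protein-coding genes tested (1.68%). The hosts are Nop56, Nop58, Ncl, Tsr1, Gnl3, Wdr43 and Dkc1. Their 24 h log2 fold changes ran from 0.46 to 1.13 with a median of 0.60, beside a median of 0.50 for the 45 other genes. The polyA libraries do not measure the snoRNAs themselves, so only the host transcripts are described. Snord110 inside Nop56 (chr2:130275506-130275573, plus strand) is shown with its C and D boxes in capitals. Its host gene encodes a protein of the box C/D particles.
Snord110: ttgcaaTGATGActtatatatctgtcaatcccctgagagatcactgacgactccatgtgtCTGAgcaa

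Some libraries stood apart from their group on the first principal components of all genes. Replicate 3 of DT at 48 h lay at -2.97 on the first principal component, where the other DT libraries of that time lay between 18.4 and 30.9. Its Lgr5 level was 171 CPM, between the lowest (164 CPM) and highest (198 CPM) saline library, while the lowest of its group was 95.4 CPM. On the second component, replicate 1 of saline at 96 h lay at 11.5 where the others of its group lay between -28.7 and -9.94, and its fibroblast markers summed to 2676 CPM against 5381 to 9410 CPM. Replicate 4 of saline at 48 h lay at 15.6 on that component, where the others lay between -7.21 and 0.94. Counts of the 52 genes without each of these libraries are given with the calls.

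Taken as a sum, transcripts of the 52 genes made up 0.397% of scaled counts in saline and 0.588% in DT libraries at 24 h. Summed levels are in CPM, counts per 1e6 counts after scaling of the libraries. The 4 saline libraries at 24 h summed to 4018, 3858, 3962 and 4045 CPM, and the 4 DT libraries to 5761, 5758, 6618 and 5369 CPM. At 48 h the saline sums were 3912, 4048, 3969 and 3969 CPM, and the DT sums 4879, 4651, 4588 and 4720 CPM. At 96 h they were 3776, 3829, 3624 and 3635 CPM in saline and 3963, 4221, 4194 and 4164 CPM in DT. All 4 DT sums lay above all 4 saline sums at each time, and the ratio of the means went from 1.48 at 24 h to 1.18 at 48 h and 1.11 at 96 h. The saline sums stayed between 3624 and 4048 CPM throughout.

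**Figure D2:**
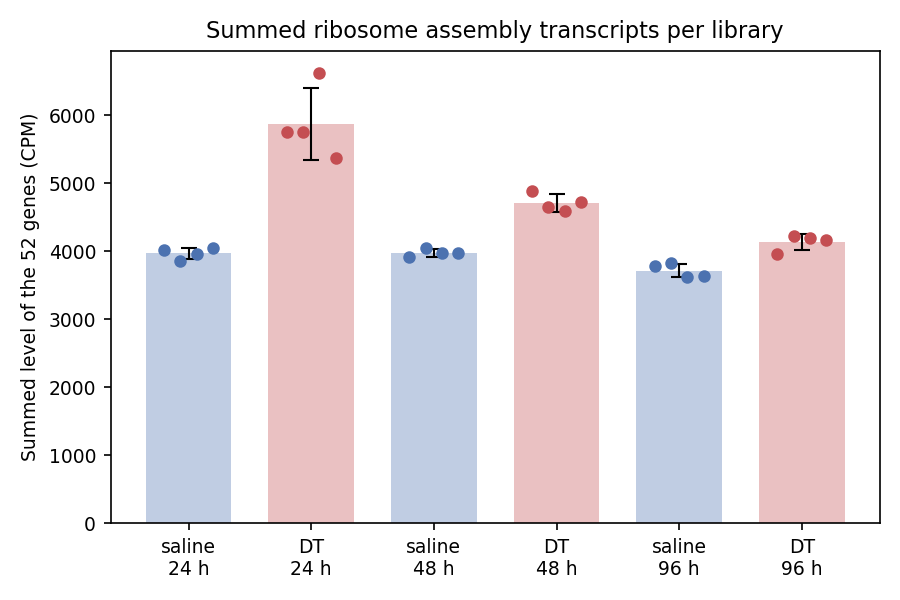
Summed level of the 52 genes in CPM (y axis, from 0) for each library (points), with the group mean (bar) and SD (error bar, n = 4). The 4 DT libraries at 24 h lie between 5369 and 6618 CPM, and the saline libraries of all times lie between 3624 and 4048 CPM.

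Gene by gene, the difference at 24 h went the same way in every member. Log2 fold changes at 24 h ran from 0.21 to 1.13 with a median of 0.53, and for each of the 52 genes all 4 DT libraries lay above all 4 saline libraries. Over all 17468 genes tested the median was 0.00, and 18.1% had all DT libraries above all saline libraries. At an adjusted p under 0.05 the 52 genes were all called higher, where 19.9% of all genes were. The contrast helped to choose the genes, so nothing is read from these counts. By size, 20 genes differed at least 1.5-fold and 2 at least 2-fold, Nop56 and Rrp12. Across the 52 genes the log2 fold change at 24 h and the mean level had a Pearson correlation of 0.03 and a Spearman correlation of 0.01, as a description over genes that share libraries.

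The same genes differed less at the later times. At 48 h the log2 fold changes ran from -0.04 to 0.55 with a median of 0.25, 36 genes had no overlap between groups (7.16% of all genes), and 29 were called higher (4.83% of all genes). At 96 h they ran from -0.13 to 0.32 with a median of 0.15, 17 genes had no overlap (4.91% of all genes), and 6 were called higher (1.01% of all genes). No member was called lower at any time (18.9%, 6.5% and 3.02% of all genes were at 24, 48 and 96 h), and nothing is read from these counts either. All 52 genes had their larger value at 24 h than at 48 h. The value at 48 h was a median of 45.3% of that at 24 h, and the value at 96 h 26.8%. From 48 to 96 h, 44 genes had the smaller value at 96 h. The 8 that did not were Fbl, Polr1a, Polr1b, Ncl, Utp20, Rrp1b, Rrs1 and Wdr12. Genes with large values at 24 h tended to have large values later: across the 52 genes the Pearson correlation was 0.70 between 24 and 48 h (Spearman 0.59) and 0.53 between 24 and 96 h (Spearman 0.50). Each time has its own saline libraries, so these correlations share no control, but they are across genes and carry no test.

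Without replicate 3 of DT at 48 h, which stood apart, the median of the 52 genes at that time was 0.28 and 35 were called higher. The count of 29 became 19 without DT replicate 4 or without saline replicate 1, 2 or 4 of that time. The 6 calls at 96 h became 0 without DT replicate 2 or saline replicate 3 or 4, 2 without DT replicate 3 or 4 or saline replicate 1, and 3 without saline replicate 2 of that time. At 24 h, Lgr5 stood at 200 ± 16.8 CPM in saline and 81.4 ± 3.72 CPM in DT (SD, n = 4).

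**Figure D3:**
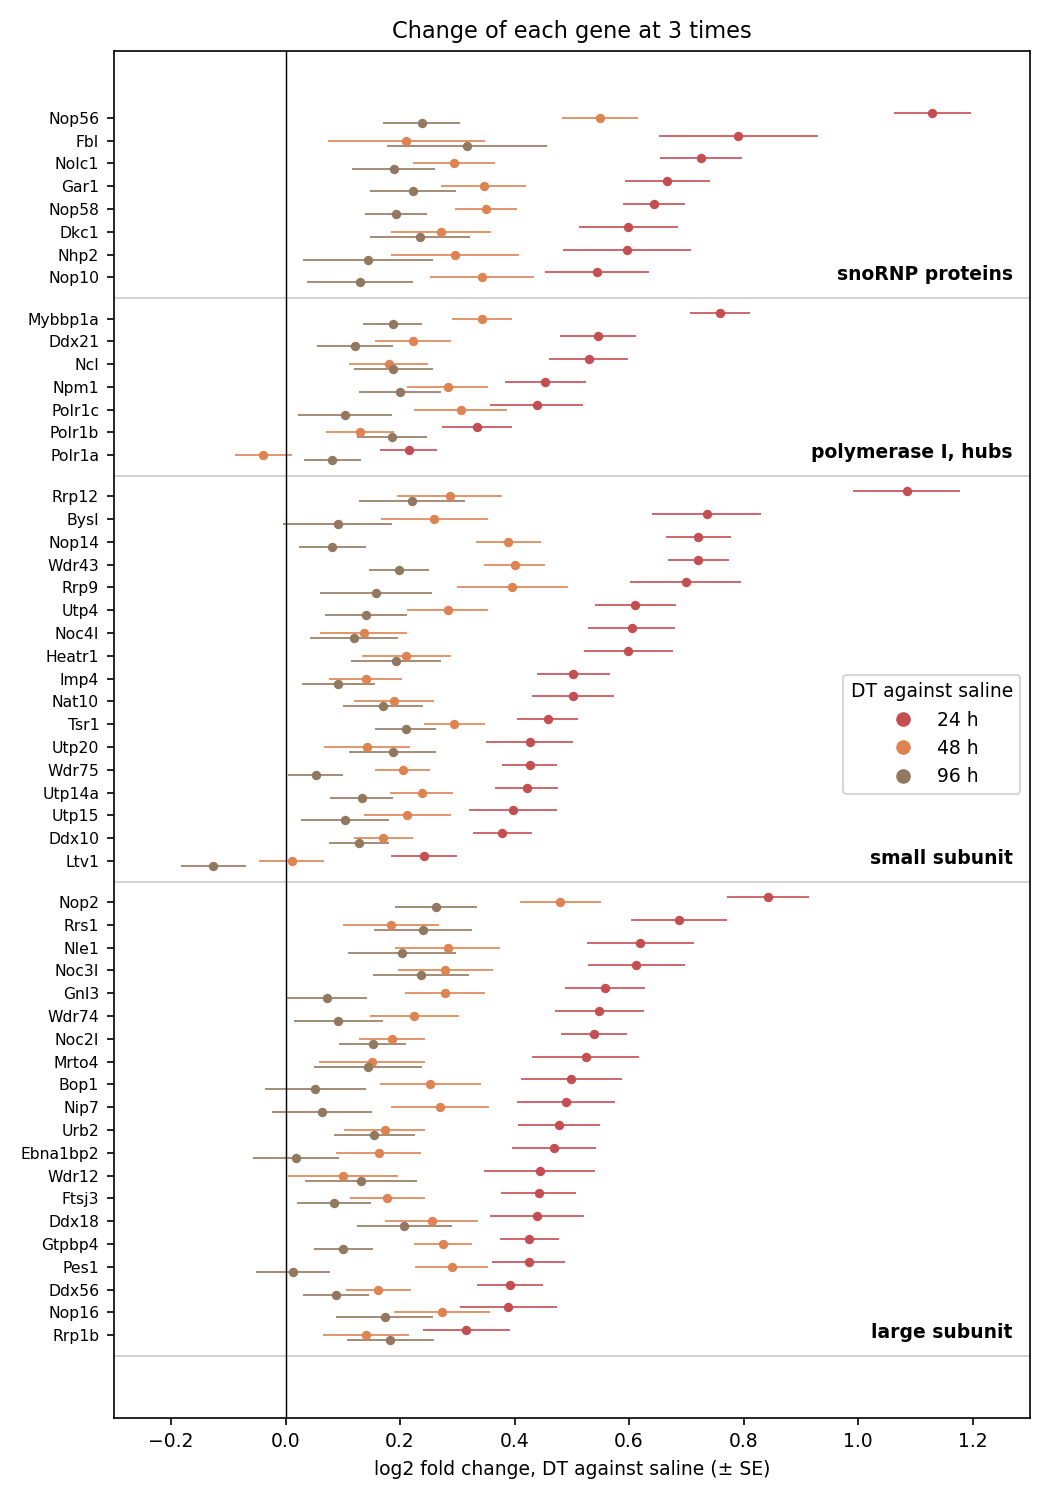
Log2 fold change of DT against saline (x axis) with its SE for each of the 52 genes (y axis), by role and ordered by the 24 h value; colours mark 24, 48 and 96 h. Every 24 h point lies right of 0, from 0.21 (Polr1a) to 1.13 (Nop56), and the 48 and 96 h points lie nearer to 0.

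The snoRNP proteins had the largest values as a group. Their 8 log2 fold changes at 24 h ran from 0.54 to 1.13 with a median of 0.66, and 20 large subunit factors, 17 small subunit factors and 7 polymerase I and hub genes had medians of 0.48, 0.50 and 0.45. The summed snoRNP transcripts were 505 ± 14.3 CPM in saline and 843 ± 92.1 CPM in DT at 24 h (SD, n = 4), a ratio of 1.67. At 48 h the ratio was 1.28 and 6 of 8 genes were called higher (4.83% of all genes), and at 96 h it was 1.15 with 2 of 8, Nop56 and Nop58 (1.01% of all genes). The contrast chose these genes, so nothing is read from the counts. Nop56 and Nop58 are proteins of the box C/D particles, the methylation guides.

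Nop56 (Entrez 67134; chr2:130274367-130279313) had the largest difference of the 52 genes. Its saline libraries at 24 h held 77.7, 79.6, 95.0 and 87.6 CPM, and its DT libraries 195, 180, 202 and 167 CPM. The lowest DT library lay far above the highest saline library (log2 fold change 1.13 ± 0.07, SE). At 48 h saline held 95.7, 92.1, 97.7 and 90.2 CPM and DT 137, 131, 137 and 144 CPM, again without overlap (0.55 ± 0.07). At 96 h saline held 93.6, 93.8, 88.6 and 85.2 CPM and DT 105, 116, 104 and 102 CPM, still without overlap (0.24 ± 0.07). Its partner Nop58 had a smaller difference at 24 h. Nop58 held 122, 113, 116 and 123 CPM in saline and 186, 178, 205 and 171 CPM in DT at that time (0.64 ± 0.05). At 48 h its values were 0.35 ± 0.05, and at 96 h 0.19 ± 0.05.

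Fibrillarin, the methyltransferase of the box C/D particle, is encoded by Fbl. Its counts were the lowest of this group, with 12.8, 7.65, 8.68 and 8.48 CPM in saline and 16.1, 15.1, 17.8 and 16.1 CPM in DT at 24 h (0.79 ± 0.14). Saline replicate 1 lay closest to the DT libraries. At 48 h (0.21 ± 0.14) and 96 h (0.32 ± 0.14) the groups overlapped. Unique reads were counted, and genes such as Fbl, Npm1 and those of ribosomal proteins have near-identical copies elsewhere in the genome, so the levels of these genes are uncertain.

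The H/ACA proteins lay close to each other. Dkc1, the pseudouridine synthase dyskerin, had a 24 h log2 fold change of 0.60 ± 0.09. Gar1 had 0.67 ± 0.07, Nhp2 0.60 ± 0.11 and Nop10 0.54 ± 0.09, and these are the 3 small proteins that sit with dyskerin on each guide RNA. Nhp2, the snoRNP gene with the highest level per length (66.4 nRPKM on average, the deposited reads per kilobase and 1e6 reads, adjusted by a size factor), held 73.1, 71.8, 69.1 and 68.4 CPM in saline and 89.6, 104, 140 and 92.4 CPM in DT at 24 h. DT replicate 3 was highest and set most of the spread in that group. Nop10 held 40.9, 34.1, 34.6 and 34.1 CPM in saline and 51.8, 48.2, 61.4 and 48.2 CPM in DT at 24 h, where saline replicate 1 was high for its group. At 48 h the same 4 proteins had values from 0.27 to 0.35. For Nhp2 and Nop10, DT replicate 1 of 48 h stood out, at 0.646 and 0.602 above the saline mean on the log2 scale. The other DT libraries of 48 h lay at 0.102 to 0.194 for Nhp2 and 0.105 to 0.333 for Nop10. Without DT replicate 1 the value of Nop10 at 48 h was 0.24. Nolc1, a nucleolar phosphoprotein that binds both kinds of snoRNP, had 0.73 ± 0.07 at 24 h and 0.29 ± 0.07 at 48 h.

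Of the RNA polymerase I subunits, Polr1a and Polr1b had small differences at 24 h beside the median of 0.53 over the 52 genes. Polr1a, the largest subunit, had the smallest 24 h value. It held 102, 99.9, 106 and 106 CPM in saline and 121, 122, 126 and 111 CPM in DT at 24 h, with no overlap but a gap of only a few CPM (0.21 ± 0.05). At 48 h it held 110, 112, 108 and 113 CPM in saline and 101, 114, 110 and 106 CPM in DT, with the groups mixed (-0.04 ± 0.05). Polr1b, which forms the catalytic centre with Polr1a, had 0.33 ± 0.06 at 24 h and 0.13 ± 0.06 at 48 h. Polr1c, which is shared with RNA polymerase III, had 0.44 ± 0.08 and 0.31 ± 0.08.

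Hub proteins had values from 0.45 to 0.76 at 24 h. Mybbp1a (Entrez 18432; chr11:72441327-72451770), a nucleolar Myb-binding protein with the highest level per length of the 52 genes (82.2 nRPKM), held 319, 320, 329 and 329 CPM in saline and 541, 548, 604 and 500 CPM in DT at 24 h. Its saline libraries were within a few percent of each other and far below the DT libraries (0.76 ± 0.05). At 48 h it held 334, 348, 330 and 328 CPM in saline and 440, 417, 416 and 428 CPM in DT (0.34 ± 0.05). At 96 h it held 312, 318, 297 and 308 CPM in saline and 325, 357, 358 and 366 CPM in DT (0.19 ± 0.05). The groups stayed apart at all 3 times.

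Ddx21, a helicase that links polymerase I and pre-rRNA processing, held 192, 175, 176 and 186 CPM in saline and 268, 268, 294 and 234 CPM in DT at 24 h (0.55 ± 0.07). At 48 h its DT replicate 1 (181 CPM) lay within the saline range of 176 to 184 CPM, and the groups overlapped (0.22 ± 0.07). Nucleolin (Ncl), a histone and RNA chaperone, had the highest counts: 794, 729, 753 and 815 CPM in saline and 1037, 1083, 1309 and 1035 CPM in DT at 24 h (0.53 ± 0.07). Its later values were 0.18 ± 0.07 at 48 h and 0.19 ± 0.07 at 96 h, and the change between them was not tested. Nucleophosmin (Npm1), the main structural protein of the outer nucleolus, had 0.45 ± 0.07, 0.28 ± 0.07 and 0.20 ± 0.07 at the 3 times.

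Small subunit factors covered the widest range at 24 h, from 0.24 to 1.08. Rrp12 (Entrez 107094; chr19:41859483-41896153), a repeat protein that binds small subunit precursors, held 23.0, 18.6, 23.4 and 22.3 CPM in saline and 49.0, 45.8, 53.2 and 37.4 CPM in DT at 24 h (1.08 ± 0.09). Every DT library was well above every saline library. Its difference was smaller at 48 h, where saline held 25.5, 28.3, 27.3 and 26.6 CPM and DT 33.4, 30.2, 31.9 and 35.5 CPM (0.29 ± 0.09). The saline mean was itself 21.8 CPM at 24 h and 26.9 CPM at 48 h. At 96 h the groups overlapped, and the value was 0.22 ± 0.09.

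Bysl (bystin), needed for the late small subunit particle, held 31.9, 30.8, 27.1 and 30.6 CPM in saline and 49.1, 50.2, 60.5 and 40.4 CPM in DT at 24 h (0.74 ± 0.10). At 48 h (0.26 ± 0.09) and 96 h (0.09 ± 0.10) its groups overlapped. Tsr1, a GTPase-like factor of the late particle, was smaller at 24 h but kept more of its difference. It held 99.3, 93.1, 97.3 and 89.8 CPM in saline and 134, 126, 140 and 122 CPM in DT at 24 h (0.46 ± 0.05). At 96 h it held 94.3, 84.6, 86.5 and 81.6 CPM in saline and 95.8, 105, 97.9 and 103 CPM in DT, without overlap (0.21 ± 0.05).

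Ltv1, a factor of the late small subunit particle, had the smallest value of this group at 24 h. It held 57.2, 53.6, 55.7 and 55.8 CPM in saline and 65.4, 65.8, 68.8 and 62.9 CPM in DT at 24 h (0.24 ± 0.06). At 48 h the groups were mixed (0.01 ± 0.06). At 96 h saline held 51.8, 43.6, 45.8 and 49.9 CPM and DT 41.8, 44.4, 44.4 and 44.9 CPM (-0.13 ± 0.06), which was the only value below 0 among the 52 genes at that time.

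Proteins that work in 1 complex did not all have like values. Of the UtpA proteins that first bind the precursor, Wdr43 had 0.72 ± 0.05 at 24 h, Utp4 0.61 ± 0.07, Heatr1 0.60 ± 0.08, Wdr75 0.43 ± 0.05 and Utp15 0.40 ± 0.08. Wdr43 held a value of 0.40 ± 0.05 at 48 h and 0.20 ± 0.05 at 96 h. Rrp9, a protein of the U3 snoRNP, had 0.70 ± 0.10 at 24 h, and the processome scaffold Nop14 had 0.72 ± 0.06. Nat10, which acetylates small subunit RNA, had 0.50 ± 0.07. The helicase Ddx10 was near the low end with 0.38 ± 0.05. The remaining genes of this group, Utp14a, Utp20, Noc4l and Imp4, lay between 0.42 and 0.60.

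Among large subunit factors, Nop2 (Entrez 110109; chr6:125131883-125144753) had the largest value. It held 62.9, 60.4, 64.0 and 62.8 CPM in saline and 102, 115, 131 and 100 CPM in DT at 24 h (0.84 ± 0.07). At 48 h it held 68.0, 70.6, 67.2 and 63.8 CPM in saline and 103, 86.3, 93.7 and 93.1 CPM in DT (0.48 ± 0.07). At 96 h it held 62.4, 67.0, 61.5 and 56.6 CPM in saline and 73.3, 74.7, 77.2 and 71.6 CPM in DT (0.26 ± 0.07). Its groups did not overlap at any time, and its saline means stayed between 61.9 and 67.4 CPM.

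Noc2l, which escorts early large subunit particles out of the nucleolus, had the highest level per length of this group (50.9 nRPKM). It held 146, 148, 156 and 156 CPM in saline and 221, 209, 248 and 202 CPM in DT at 24 h (0.54 ± 0.06). Its partner Noc3l had 0.61 ± 0.08. Rrs1, which helps to load a ribosomal RNA and protein particle onto the large subunit, held 33.1, 30.8, 29.8 and 25.9 CPM in saline and 42.4, 52.9, 51.0 and 45.8 CPM in DT at 24 h (0.69 ± 0.08). Rrp1b had the smallest value of the group, with 37.2, 44.5, 44.9 and 41.8 CPM in saline and 55.0, 53.1, 54.6 and 47.1 CPM in DT at 24 h (0.32 ± 0.08). Even there the lowest DT library lay above the highest saline library.

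The 3 proteins of the PeBoW complex, which is needed to process large subunit RNA, had like values at 24 h: 0.42 ± 0.06 for Pes1, 0.50 ± 0.09 for Bop1 and 0.44 ± 0.10 for Wdr12. At 96 h they were 0.01 ± 0.06, 0.05 ± 0.09 and 0.13 ± 0.10, beside a median of 0.15 over the 52 genes. Gnl3, the GTPase nucleostemin that is abundant in stem and tumour cells, had 0.56 ± 0.07 at 24 h, 0.28 ± 0.07 at 48 h and 0.07 ± 0.07 at 96 h. Nle1, which triggers release of assembly factors, had 0.62 ± 0.09. The helicases Ddx18 and Ddx56 had 0.44 ± 0.08 and 0.39 ± 0.06. The GTPase Gtpbp4 had 0.43 ± 0.05, and the RNA methyltransferase Ftsj3 0.44 ± 0.07. Urb2 (0.48 ± 0.07), Nop16, Wdr74, Nip7, Ebna1bp2 and Mrto4 lay between 0.39 and 0.55.

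**Figure D4:**
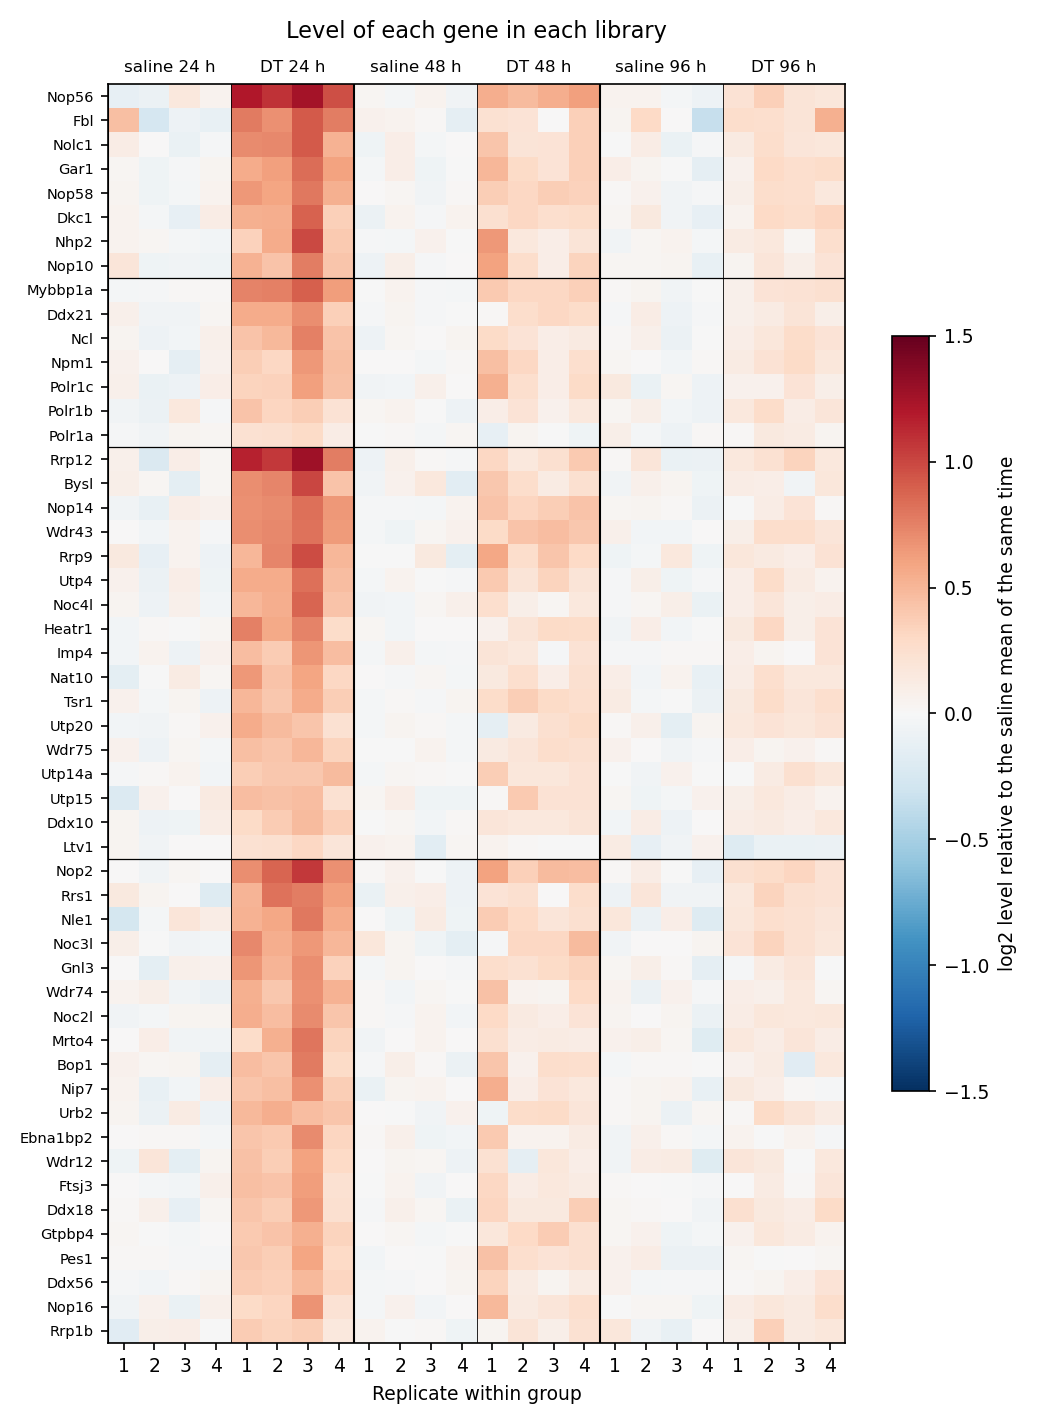
Level of each of the 52 genes (rows, by role) in each of the 24 libraries (columns, 4 replicates per group) as log2 relative to the saline mean of the same time; red is above it and blue below. The 4 DT columns at 24 h are red in all rows, deepest in replicate 3, and the DT columns at 48 and 96 h are paler.

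Spread among DT libraries at 24 h was shared across the genes. Replicate 3 was the highest of the 4 for 43 of the 52 genes, and replicate 4 the lowest for 40. The median coefficient of variation over genes was 9.30% in that group, 5.78% in saline at 24 h, 3.54% in saline at 48 h and 7.08% in DT at 48 h. Without replicate 3 the median log2 fold change at 24 h was 0.46, and all 52 genes were called higher. The contrast chose the genes, so nothing is read from that count. Summed transcripts of 30 genes of dividing cells were also highest in replicate 3 and lowest in replicate 4, with 2480, 2495, 2980 and 2165 CPM in DT replicates 1 to 4 and 1113 to 1280 CPM in saline. Sums of the 7 epithelial markers had the same extremes, with 7189, 7421, 8662 and 6938 CPM in DT replicates 1 to 4. Mki67, a marker of dividing cells, was instead highest in replicate 1, with 285.5, 271.7, 242.2 and 211.8 CPM.

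All 30 genes of dividing cells rose at 24 h (19.9% of all genes rose), with a median log2 fold change of 1.24, 23 rose at 48 h and 16 at 96 h (edgeR adjusted p under 0.05). Over all genes 4.83% rose at 48 h and 1.01% at 96 h. Cyclin B2 (Ccnb2) rose by 1.57 ± 0.11 on the log2 scale at 24 h (edgeR adjusted p = 6.0e-10), and the kinesin Kif23 by 1.28 ± 0.10 (edgeR adjusted p = 1.8e-09). Myc, the transcription factor named above, held 166, 153, 173 and 156 CPM in saline and 224, 214, 257 and 225 CPM in DT at 24 h. It rose at 24 h (0.51 ± 0.07, edgeR adjusted p = 3.4e-06), at 48 h (0.52 ± 0.07, 7.7e-05) and at 96 h (0.38 ± 0.07, 0.0015). The difference between its log2 fold changes at 96 and 24 h did not pass (-0.12 ± 0.10, edgeR adjusted p = 0.46). The level of Myc itself was lower at later times in both arms. Its means at 24, 48 and 96 h were 162, 127 and 116 CPM in saline and 230, 182 and 151 CPM in DT. The part of dividing cells and of Myc in the values of the 52 genes was not tested.

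Of 13 genes of the Myc network, 3 rose and 3 fell at 24 h (23.1% each), close to the 19.9% and 18.9% of all genes that did. Their median log2 fold change was -0.06, and nothing is read from these counts. Mxi1, which competes with Myc for its partner Max, fell by 0.49 ± 0.07 (edgeR adjusted p = 6.3e-06), from 88.1 ± 6.48 to 62.5 ± 6.83 CPM (SD, n = 4). Mxd1 and Mxd4 of the same family also fell (-0.48 ± 0.11 and -0.35 ± 0.09), while Mxd3 rose (0.83 ± 0.18), as did Zbtb17 (0.20 ± 0.07, edgeR adjusted p = 0.039). Max itself had -0.06 and did not pass.

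Markers of other cells were present. The 12 leukocyte markers summed to 222 to 307 CPM in saline and 136 to 377 CPM in DT at 24 h, and of the 8 that could be tested none was called at that time (edgeR; 0 at an unadjusted p under 0.05, and 0 by DESeq2 and by limma). Ptprc, which defines leukocytes, ran from 2.91 to 12.4 CPM there, and Cd3e and Cd79a of lymphocytes were at or below 0.448 CPM in every library. The 6 fibroblast markers summed to 3319 to 3892 CPM in saline and 2827 to 6479 CPM in DT at 24 h, and Dcn (0.96 ± 0.32, edgeR adjusted p = 0.021) and Pdgfra (0.53 ± 0.21, 0.048) of the 6 were called higher. At 48 h the fibroblast sums were 3532 to 7182 CPM in saline and 6843 to 11210 CPM in DT, and at 96 h 2676 to 9410 CPM and 5249 to 9677 CPM. Col1a1, their defining marker, ran from 967 to 2539 CPM in DT at 24 h, 2536 to 4184 CPM at 48 h and 1952 to 3764 CPM at 96 h, and was near 0 in no library. The 4 endothelial markers summed to 154 to 221 CPM in saline and 209 to 231 CPM in DT at 24 h, with none called at that time (edgeR; 0 at an unadjusted p under 0.05, and 0 by DESeq2 and by limma). Epithelial markers were high, with Epcam at 1587 ± 58.2 CPM in saline and 1323 ± 91.2 CPM in DT at 24 h (SD, n = 4; -0.26, edgeR adjusted p = 0.0014). Of the 7 epithelial markers, 2 fell at 24 h (Epcam and Cdh1) and 2 rose (Krt18 by 0.37 and Krt19 by 0.43), and the median log2 fold change was 0.08. Over all genes 18.9% fell and 19.9% rose at that time. The part of these cells in the values of the 52 genes was not tested.

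A contrast that did not choose the 52 genes is that among saline libraries over time. Of the 52 genes, none was called higher or lower in saline at 48 h against 24 h (edgeR, quasi-likelihood, with adjusted p under 0.05; 0.355% of all genes were called in either direction). At an unadjusted p under 0.05, 6 were higher and 1 lower; DESeq2 called none and limma 1. All 48 h libraries lay above all 24 h libraries for 6 genes (4.92% of all genes) and below them for 3 (4.87% of all genes). The median log2 change was 0.02, with a range of -0.22 to 0.30. Rrp12 had the largest, from 21.8 ± 2.21 to 26.9 ± 1.18 CPM (SD, n = 4; 0.30 ± 0.10, edgeR adjusted p = 0.23). Polr1b went from 43.5 ± 3.46 to 49.7 ± 1.89 CPM (0.19 ± 0.06, edgeR adjusted p = 0.23), and limma called it. Urb2 had 0.21 ± 0.07, and Nop10 had -0.22 ± 0.09.

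From 24 to 96 h in saline, 1 of the 52 genes was called lower and none higher, where 1.13% and 2.09% of all genes were. That gene was Ltv1, which went from 55.6 ± 1.47 to 47.8 ± 3.70 CPM (SD, n = 4) and fell by 0.22 ± 0.06 on the log2 scale (edgeR adjusted p = 0.039). All 4 libraries at 96 h, with 51.8, 43.6, 45.8 and 49.9 CPM, lay below all 4 at 24 h. Its call was lost without any single library of these 2 times other than saline replicate 1 of 96 h (adjusted p = 0.0553 to 0.175), and with the replicate block (0.0503). Ncl went from 773 ± 38.8 to 664 ± 32.1 CPM (-0.22 ± 0.07, edgeR adjusted p = 0.078), Utp14a from 41.0 ± 1.22 to 36.3 ± 1.19 CPM (-0.18 ± 0.06, 0.079), and Nop58 from 118 ± 4.57 to 105 ± 3.53 CPM (-0.17 ± 0.05, 0.084). None of the 3 overlapped between the times, and DESeq2 called Ncl and Nop58. The median over the 52 genes was -0.06, 42 lay below 0, and 11 had all 96 h libraries below all 24 h libraries (6.51% of all genes) and 0 had them all above (5.08% of all genes). Endothelial markers went the other way over these times, with 4 of 4 called higher, and 3 of 8 leukocyte markers were called lower.

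Genes of the same pathway outside the list were compared in the same libraries. They are 113 further assembly factors, listed by function with earlier results of these data known, so they are not independent evidence of a direction. At 24 h, 84 of the 113 rose and none fell (edgeR adjusted p under 0.05; at an unadjusted p under 0.05 1 was lower, and DESeq2 called 0 lower and limma 1), where 19.9% of all genes rose. Their median log2 fold change was 0.31, against 0.00 over all genes and 0.53 over the 52. At 48 h 35 rose (4.83% of all genes did), with a median of 0.16. At 96 h none was called (21 were higher and 0 lower at an unadjusted p under 0.05; DESeq2 called 2 higher and limma 13), with a median of 0.06. The count at 48 h was 19 without DT replicate 4 or saline replicate 1 of that time, and 42 without DT replicate 3.

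Of 43 small subunit factors outside the list, 37 rose at 24 h (19.9% of all genes did). Pno1, which holds the end of the small subunit RNA until it is cut, held 39.6, 36.8, 36.3 and 36.1 CPM in saline and 57.5, 64.3, 78.1 and 55.7 CPM in DT at 24 h (0.78 ± 0.08, edgeR adjusted p = 5.7e-08). Nob1, the nuclease that makes this cut, rose too (0.53 ± 0.09, edgeR adjusted p = 2.7e-05) and was still higher at 48 h (0.43 ± 0.09, 0.0020). Mphosph10 of the U3 particle (0.65 ± 0.08) and Nol11 of UtpA (0.55 ± 0.06) rose at 24 h, as did the helicase Ddx52 (0.36 ± 0.05). Ddx52 differed as much at 48 h (0.34 ± 0.05, edgeR adjusted p = 3.7e-04) and had 0.04 ± 0.06 at 96 h.

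Of 45 large subunit factors outside the list, 33 rose at 24 h (19.9% of all genes did). The GTPase Gnl2 held 89.2, 86.9, 93.7 and 96.5 CPM in saline and 127, 124, 124 and 121 CPM in DT (0.44 ± 0.05, edgeR adjusted p = 1.2e-07). The helicase Ddx27 (0.49 ± 0.06) and Heatr3 (0.56 ± 0.06), which carries ribosomal proteins into the nucleus, rose as well. So did Rrp8, a methyltransferase (0.40 ± 0.05). Its value at 96 h was 0.18 ± 0.05 and did not pass (edgeR adjusted p = 0.062), though it passed by DESeq2 (0.030) and limma (0.0075).

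Of 15 polymerase I factors, 6 rose at 24 h (40.0%, beside 19.9% of all genes). Treacle (Tcof1), which recruits factors to ribosomal DNA, rose from 75.0 ± 1.92 to 116 ± 21.4 CPM (SD, n = 4; 0.63 ± 0.09, edgeR adjusted p = 6.7e-06). Rrn3, which makes the polymerase ready to start, rose by 0.29 ± 0.04 (edgeR adjusted p = 1.6e-05). The subunit Polr1e rose by 0.41 ± 0.10 (edgeR adjusted p = 0.0024), although its DT replicate 4, at 15.2 CPM, lay within the saline range of 13.9 to 15.3 CPM. Ubtf, which opens ribosomal DNA for transcription and is named here after its value was seen, had 0.08 ± 0.045 and did not pass (edgeR adjusted p = 0.19).

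Of 10 factors that build snoRNPs, 8 rose at 24 h (19.9% of all genes did). They included the ATPase Ruvbl2 (0.60 ± 0.09, edgeR adjusted p = 6.2e-06), its adaptor Rpap3 (0.42 ± 0.07), the assembly factor Nufip1 (0.31 ± 0.06) and the H/ACA assembly factor Naf1 (0.36 ± 0.09). At 48 h 1 of the 10 was called, Nufip1 (0.20 ± 0.06, edgeR adjusted p = 0.033), and the call for Nufip1 was lost without DT replicate 1 or saline replicate 1, 3 or 4 of that time (0.0524 to 0.101). Over all genes 4.83% were called higher at 48 h. Ruvbl2 had 0.18 ± 0.085 at 48 h and 0.04 ± 0.085 at 96 h.

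The DT effect at 96 h was compared with that at 24 h in the same 113 genes. For 40 of the 113 the effect of DT was smaller at 96 h than at 24 h, and for none was it larger (edgeR interaction test, Benjamini-Hochberg adjusted p under 0.05; 7.82% of all genes were called lower and 4.08% higher in this contrast). At an unadjusted p under 0.05, 69 were smaller and 0 larger, and neither DESeq2 nor limma called any larger. Pno1 had the largest change among those named here, -0.61 ± 0.11 on the log2 scale (edgeR adjusted p = 9.5e-04), and Gnl2 changed by -0.42 ± 0.07 (edgeR adjusted p = 3.0e-04). The 40 comprised 21 large subunit, 16 small subunit and 3 snoRNP assembly factors and 0 of the 15 polymerase I factors, of which 4 were smaller at an unadjusted p under 0.05 while DESeq2 and limma called 0. Among the 52 genes themselves, 38 met the same threshold, Nop56 with -0.89 ± 0.09 and Rrp12 with -0.86 ± 0.13 having the largest values. These are given as a description.

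Ribosomal proteins are the cargo of this pathway. Of 55 cytosolic ribosomal protein genes 16 rose at 24 h and none fell (edgeR; 21 higher and 1 lower at an unadjusted p under 0.05; DESeq2 called 0 lower and limma 1), with a median of 0.23. At 48 h 1 was called and at 96 h none (edgeR; at 96 h 1 higher and 0 lower at an unadjusted p under 0.05; 0 by DESeq2 and by limma). The genes called higher were 29.1% of the 55 at 24 h and 1.82% at 48 h, beside 19.9% and 4.83% of all genes. Of all genes, 18.9% fell at 24 h. Rpl3, a large subunit protein, held 14.8, 15.2, 18.8 and 13.5 CPM in saline and 26.0, 24.3, 23.0 and 22.6 CPM in DT at 24 h (0.62 ± 0.10, edgeR adjusted p = 2.2e-05). Rpl10a rose by 0.64 ± 0.10 (edgeR adjusted p = 3.4e-05). Their summed level overlapped between the groups, with 7191 ± 414 CPM in saline and 7506 ± 671 CPM in DT at 24 h (SD, n = 4), a ratio of 1.04 against 1.48 for the 52 genes. As noted for Fbl, unique reads leave the levels of these genes uncertain.

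**Figure D5:**
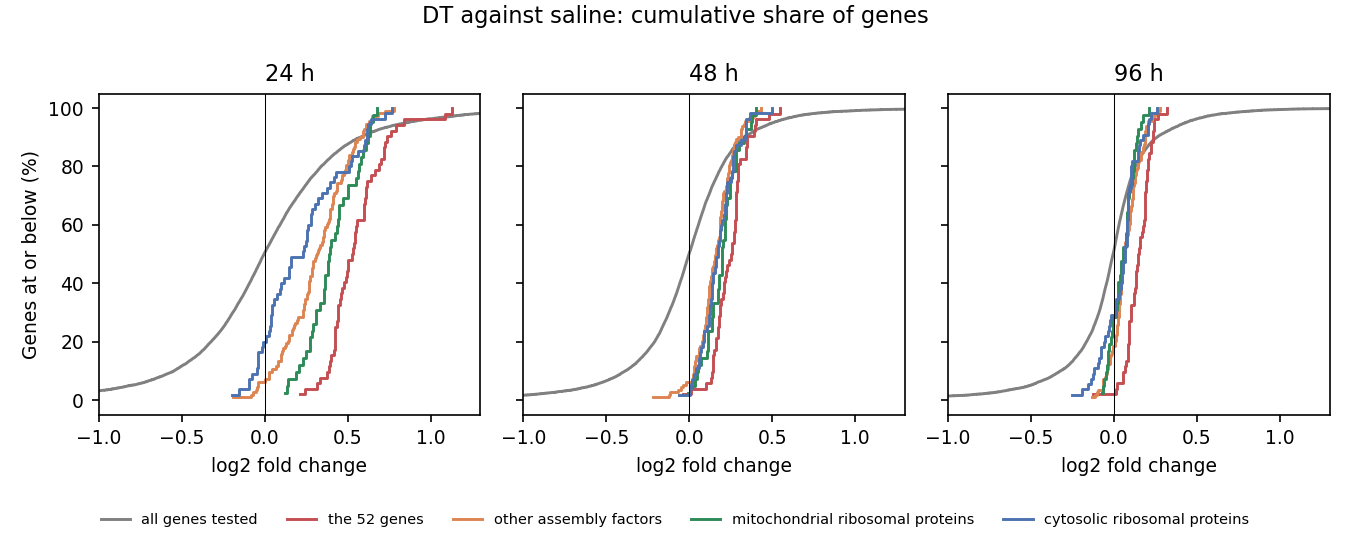
Cumulative share of genes (%, y axis) at or below each log2 fold change of DT against saline (x axis) at 24, 48 and 96 h, for all 17468 genes tested, the 52 genes, 113 other assembly factors, 42 mitochondrial and 55 cytosolic ribosomal protein genes. At 24 h the medians are 0.00, 0.53, 0.31, 0.39 and 0.23, and at 96 h the curves draw close to that of all genes.

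Strand use in the counting is not given in the sources used here, so reads from overlapping genes on opposite strands may be shared. Exons of 15 of the 52 genes overlap those of a coding gene on the other strand, over 10% of their length in 2: Tsr1 shares 32.3% with Srr and Noc2l 20.9% with Samd11. Reads of these pairs cannot be told apart.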

How the data were processed

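PolyA RNA from 24 sorted libraries was sequenced. The authors deposited 2 values per gene and library: per the file headers, a count of uniquely aligned reads per gene model, and nRPKM, an RPKM adjusted by a size factor. GSNAP and GRCm38 are named per the submitters' processing notes; the sources used here do not give the aligner version, the annotation or strand use. Gene names came from RefSeq (GRCm38.p6), where 31049 of 36528 identifiers (85.0%) matched.

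Counts were tested with edgeR 4.0.16 (quasi-likelihood, robust, TMM scaling, R 4.3.3) on all 24 libraries with 1 mean per group, over the 17468 genes passing filterByExpr. Tests were two-sided, with Benjamini-Hochberg adjustment over all genes. SE is the log2 fold change divided by the root of F. CPM used TMM library sizes. Levels between genes used nRPKM only. Scripts were tested on simulated data. The members and lists were chosen with earlier results of these data known. The 3 names Polr1f, Polr1g and Polr1h were not matched and are not analysed here.

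Genes were named by a rule. In each role group it takes the highest nRPKM, the 2 largest and the smallest 24 h changes, and up to 4 smallest p-values in each saline contrast. For each list of other factors it takes up to 3 smallest p-values at 24 h and 1 at 48 and at 96 h. For comparison lists it takes Myc and up to 2 smallest p-values at 24 h. All other genes named were chosen after their values were seen. Alternatives were DESeq2 1.42.0, other scalings and filters, only the libraries compared, a replicate block and leaving out each library. A further alternative was limma 3.58.1 (voom with a quality weight per library, robust).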

Additional observations from a re-analysis of the deposited data

Results flagged for a closer look

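In 150 groups of 4 libraries, some values lay far from the other 3 of their group. Chance flags about 1 in 20 groups. The 150 did not cover all 52 members in all 6 groups of libraries. Among the members these were Ddx21 in saline at 48 h (183.6 CPM), Ltv1 in saline at 48 h (46.45 CPM) and in DT at 96 h (41.8 CPM), and Nhp2 in DT at 48 h (103.0 CPM). Nop10 had 1 such library in saline at 24 h (40.88 CPM) and 1 in saline at 96 h (30.13 CPM). Rrs1 (31.57 CPM) and Urb2 (36.2 CPM) each had 1 in saline at 96 h.

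The effect of DT differed between 96 and 24 h for 40 of the 113 other assembly factors (edgeR interaction test). In this contrast 7.82% of all genes were called lower and 4.08% higher. Among those named, the log2 difference was -0.609 for Pno1, -0.564 for Ruvbl2, -0.511 for Mphosph10, -0.503 for Nol11 and -0.417 for Gnl2. It was -0.385 for Rpap3, -0.378 for Ddx27, -0.368 for Heatr3, -0.33 for Ddx52 and -0.259 for Nufip1. The call of Rpap3 (edgeR adjusted p = 0.0173) was lost without DT replicate 4 of 96 h (0.066) or without saline replicate 1 (0.0569) or 4 (0.0538) of 24 h. That of Nufip1 (0.0472) was lost in most alternatives, with adjusted p-values of 0.0517 to 0.163.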

How the results depend on the processing

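No named value changed sign with a call. The 52 members were called higher at 24 h in every alternative run, where 19.9% of all genes were in the main run. The contrast chose these genes, so nothing is read from that count or from their counts at 48 and 96 h. Of the 52 members, 29 were called higher at 48 h, and limma called 45 and a fit to only the libraries compared 16. At 96 h 6 were called, and limma called 19, no filter 0 and the replicate block 3. For other factors, the count lower at 24 h (0) was 1 with limma and 1 with only the libraries compared. Their count at 48 h (35) was 12 with only the libraries compared. Their count at 96 h (0) was 2 with DESeq2, 1 with a filter of 1 CPM, 13 with limma, 1 with only the libraries compared and 6 with upper quartile scaling. Among saline libraries, members higher at 48 h (0) were 1 with limma. Members lower at 96 h (1) were 3 with DESeq2, 6 with limma, 0 without a filter, 0 with only the libraries compared and 0 with the replicate block. The cause of these differences was not tested.

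Leaving out 1 library gave 19 to 35 members at 48 h and 0 to 4 at 96 h. For other factors it gave 74 to 84 higher and 0 to 1 lower at 24 h, 19 to 42 at 48 h, 0 to 1 at 96 h and 27 to 50 smaller at 96 h than at 24 h. It gave 0 to 1 members lower in saline at 96 h. Member medians ranged from 0.457 to 0.562, 0.226 to 0.282 and 0.134 to 0.182 at the 3 times, and medians of other factors from 0.284 to 0.343, 0.128 to 0.19 and 0.048 to 0.089. Replicate numbers did not pair the samples: deviations of same-numbered libraries had correlations of -0.356 to 0.13.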

Other observations

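The RNA exosome, which trims ribosomal RNA precursors, and the mitochondrial ribosome were also higher in DT. Of 14 exosome genes, 11 rose at 24 h and 2 at 48 h (edgeR adjusted p under 0.05), with a median log2 fold change of 0.43 at 24 h. Over all genes 19.9% rose at 24 h and 4.83% at 48 h. At 96 h none was called (edgeR; 1 higher at an unadjusted p under 0.05; DESeq2 0 and limma 1). The helicase Mtrex rose by 0.48 ± 0.05 (edgeR adjusted p = 2.3e-07), and the nuclease Exosc10 by 0.44 ± 0.05 (3.1e-07).

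Of 42 mitochondrial ribosomal protein genes, 37 rose at 24 h, 11 at 48 h and none at 96 h (edgeR; 3 higher at an unadjusted p under 0.05 at 96 h; DESeq2 0 and limma 0). Their summed level was 1379 CPM in saline and 1826 CPM in DT at 24 h. Mrpl38 went from 51.4 ± 2.78 to 79.8 ± 7.95 CPM (SD, n = 4; 0.64 ± 0.08, edgeR adjusted p = 1.0e-06). For 20 of the 42 the effect of DT was smaller at 96 h than at 24 h, where 7.82% of all genes were called lower in that contrast. The shares of all genes that rose were 19.9% at 24 h and 4.83% at 48 h.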
